A study of Homo sapiens with 4 samples.

Results

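The ends of chromosomes were examined in a chromatin immunoprecipitation (ChIP) series on MTA1 in HCT116, an established human cell line derived from a carcinoma of the colon, which was fixed with formaldehyde and for which the labels name no treatment or genetic change. The series held 2 libraries made with an antibody to MTA1 and 2 input libraries made without antibody, and the authors deposited 2 lists of peaks, 1 for each numbered pair of ChIP and input. A peak belonged to a chromosome end when its midpoint lay within 3 Mb of the start of the first or the end of the last annotated gene of chromosomes 1 to 12 and 18 to 22, which gave 34 ends on 17 chromosomes and 102 Mb. By this rule 3890 of the 32042 peaks of list 1 and 1084 of the 31079 peaks of list 2 were members, 4974 of 63121 peaks in all. The other 21345 peaks of list 1 and 24239 peaks of list 2 on the same chromosomes, over 2259 Mb, served as the comparison. The rule used annotation alone and no measured value.

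MTA1 is a subunit of the NuRD complex, which joins an ATPase that slides nucleosomes to histone deacetylases and to proteins that bind methylated DNA, and which is known for repressing transcription and for settling on many active promoters and enhancers. Subtelomeres are the stretches between the telomere repeats and the unique sequence of an arm. Their outermost part holds families copied between chromosomes, such as the WASH, DUX4, FRG2 and OR4F genes, and further in many human arms are rich in genes, in G and C and in CpG dinucleotides. The windows were set by distance alone and were not limited to the stretch so defined. Of the 3890 list 1 members, 157 lay in the outermost 0.25 Mb and 314 from 0.25 to 0.5 Mb. Of the 1084 list 2 members, 68 and 125 did. Most members thus lay further in, and how much of each window is subtelomere in this sense was not tested. The label is used here only for a place next to the tip of an arm, which most of the 34 ends have. The exceptions are the low-coordinate ends of chromosomes 21 and 22, whose first annotated genes lie at 5.01 and 10.7 Mb, so that these windows cover short arms and the neighbourhood of the centromere and not the subtelomere. There chromosome 21 held 0 list 1 and 7 list 2 peaks, and chromosome 22 held 2 and 4. Peak lists carry no expression values, so the identity of the cells was not checked against markers.

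The promoters printed here belong to genes of the chromosome ends whose start carries 1 of the best-ranked regions shared by both lists. They are shown because both lists placed a peak over all or part of them. The list 1 peak covered all 300 bases of each window except that of ZNF837 (188 bases). The list 2 peak covered 300 bases for AURKAIP1, UBAC1 and C1orf159, 260 for DPH7, 184 for UBE2J2 and 156 for ZNF837. Sequences are from RefSeq (GRCh38.p14), run 5′ to 3′ on the strand of the gene from 250 bases before to 50 bases after its start, and have every CpG in capitals. The windows are chr1:1375158-1375457 (minus strand) for AURKAIP1, chr9:135961324-135961623 (minus) for UBAC1, chr1:1116040-1116339 (minus) for C1orf159, chr1:1273805-1274104 (minus) for UBE2J2, chr19:58380981-58381280 (minus) for ZNF837 and chr9:137578876-137579175 (minus) for DPH7.
AURKAIP1: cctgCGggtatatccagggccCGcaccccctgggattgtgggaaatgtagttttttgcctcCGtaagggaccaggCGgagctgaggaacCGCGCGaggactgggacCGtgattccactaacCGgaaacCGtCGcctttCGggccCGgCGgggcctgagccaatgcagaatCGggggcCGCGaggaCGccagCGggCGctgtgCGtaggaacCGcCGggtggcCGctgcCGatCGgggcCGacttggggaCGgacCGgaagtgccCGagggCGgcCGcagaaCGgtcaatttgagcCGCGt
UBAC1: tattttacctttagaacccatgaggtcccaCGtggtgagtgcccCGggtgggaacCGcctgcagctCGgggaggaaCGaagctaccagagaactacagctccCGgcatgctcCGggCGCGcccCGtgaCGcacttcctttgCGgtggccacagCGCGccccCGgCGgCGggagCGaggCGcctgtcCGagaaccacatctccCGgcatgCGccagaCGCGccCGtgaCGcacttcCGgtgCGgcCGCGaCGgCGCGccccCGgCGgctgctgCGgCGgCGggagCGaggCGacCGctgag
C1orf159: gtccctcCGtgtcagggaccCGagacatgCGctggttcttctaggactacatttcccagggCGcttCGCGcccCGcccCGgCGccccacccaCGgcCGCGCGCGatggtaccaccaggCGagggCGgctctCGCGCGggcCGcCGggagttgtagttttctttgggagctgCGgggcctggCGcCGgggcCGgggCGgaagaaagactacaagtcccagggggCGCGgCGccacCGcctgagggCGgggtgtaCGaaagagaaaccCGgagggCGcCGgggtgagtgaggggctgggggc
UBE2J2: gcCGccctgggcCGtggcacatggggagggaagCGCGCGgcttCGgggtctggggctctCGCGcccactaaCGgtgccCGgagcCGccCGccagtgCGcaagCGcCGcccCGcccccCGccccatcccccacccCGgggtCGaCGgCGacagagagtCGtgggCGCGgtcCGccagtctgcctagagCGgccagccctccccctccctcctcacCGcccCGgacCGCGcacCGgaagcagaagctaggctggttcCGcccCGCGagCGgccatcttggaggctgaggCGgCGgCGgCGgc
ZNF837: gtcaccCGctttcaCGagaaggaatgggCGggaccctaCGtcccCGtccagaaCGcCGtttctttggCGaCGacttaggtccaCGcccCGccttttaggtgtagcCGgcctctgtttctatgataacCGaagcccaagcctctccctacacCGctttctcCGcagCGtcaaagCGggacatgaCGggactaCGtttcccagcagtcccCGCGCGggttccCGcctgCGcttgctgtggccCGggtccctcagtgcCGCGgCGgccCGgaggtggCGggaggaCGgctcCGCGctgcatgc
DPH7: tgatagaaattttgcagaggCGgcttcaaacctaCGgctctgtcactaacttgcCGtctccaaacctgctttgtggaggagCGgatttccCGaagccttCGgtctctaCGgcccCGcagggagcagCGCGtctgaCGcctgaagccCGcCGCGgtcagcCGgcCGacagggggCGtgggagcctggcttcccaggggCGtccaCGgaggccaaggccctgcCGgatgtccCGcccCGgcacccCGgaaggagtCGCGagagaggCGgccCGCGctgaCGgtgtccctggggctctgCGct
These windows held 30 to 41 CpGs each, against a median of 29 in the 995 promoters of the chromosome ends and 21 in the 11307 promoters of the rest. Their G and C content was 65.7% to 77.3%. The hexamer GGGCGG or its reverse complement CCGCCC, the letters of a GC box, occurred 6 times in the UBE2J2 window, 4 times in that of C1orf159, once each in those of AURKAIP1, ZNF837 and DPH7, and not in that of UBAC1. No window held the telomere repeat TTAGGG or its reverse complement CCCTAA.

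The replicates had few peaks in common. On the 17 chromosomes 879 of 25235 list 1 peaks (3.48%) met a list 2 peak with 1 bp or more, and list 1 peaks were wider, so each value below is given for each list. No read counts were analysed, the depth is unknown, and with 1 list per replicate no test across libraries was possible. The intervals are 95% intervals that cover counting error only, and neighbouring peaks are not independent. Whether separate cultures stood behind the replicates is not in the labels.

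The replicates disagreed on whether MTA1 peaks gathered in the chromosome ends. List 1 had 38.1 peaks per Mb in the ends (36.9 to 39.4) and 9.45 per Mb in the rest (9.32 to 9.58), a ratio of 4.04 (3.90 to 4.18). List 2 had 10.6 per Mb in the ends (10.0 to 11.3) and 10.7 in the rest (10.6 to 10.9), a ratio of 0.990 (0.931 to 1.05). The ends made up 4.32% of the length, and they held 15.4% of list 1 peaks and 4.28% of list 2 peaks. In the ends list 1 peaks outnumbered list 2 peaks 3.59 times (3.35 to 3.84), whereas in the rest the ratio was 0.881 (0.865 to 0.897). Shared regions, which are merged intervals with a peak of each list, numbered 132 in the ends and 740 in the rest, 1.29 against 0.328 per Mb (ratio 3.95, 3.26 to 4.76). Each shared region needs a list 1 peak, so this ratio is not independent of the one for list 1.

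List 1 was densest some way in from the outermost gene. Its density was 18.5 peaks per Mb in the outermost 0.25 Mb, 36.9 from 0.25 to 0.5 Mb, 47.7 from 0.5 to 1 Mb and 45.7 from 1 to 1.5 Mb. From there to 3 Mb it was lower at each step, with 39.8, 36.5 and 31.4 peaks per Mb in the following steps of 0.5 Mb. The limit of 3 Mb fell on a slope and not on an edge, since density was 31.4 per Mb just inside it (2.5 to 3 Mb) and 28.6 just outside (3 to 4 Mb), 22.6 from 4 to 5 Mb, 16.3 from 5 to 7 Mb, 16.7 from 7 to 10 Mb, 13.9 from 10 to 15 Mb and 10.5 from 15 to 20 Mb. List 2 had 8 peaks per Mb in the outermost 0.25 Mb, 14.7 from 0.25 to 0.5 Mb, and between 9 and 12.6 in every later step up to 20 Mb. Protein-coding genes numbered 15.4 to 16.9 per Mb up to 1.5 Mb, 10.3 from 1.5 to 2 Mb and 7.05 to 9.59 from there to 20 Mb. From 3 to 4 Mb list 1 was thus at 28.6 peaks per Mb against 9.45 in the whole rest, and genes were at 7.44 against 6.25.

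**Figure D1:**
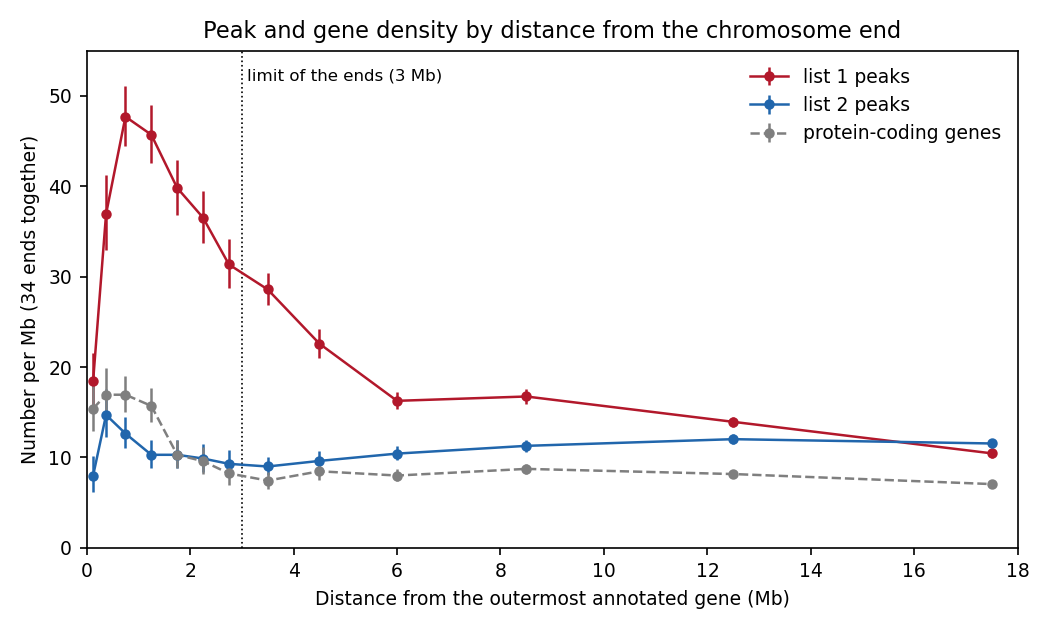
Peaks of list 1 (red), peaks of list 2 (blue) and protein-coding genes (grey, dashed) per Mb, summed over 34 ends, against the distance of their midpoint from the outermost annotated gene in Mb, with bars for the 95% Poisson interval. List 1 is highest at 47.7 per Mb from 0.5 to 1 Mb and stands at 10.5 per Mb from 15 to 20 Mb, while list 2 lies between 8 and 14.7 per Mb throughout.

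Single ends differed widely in list 1. The lowest end held 0 peaks, the median end 76.5 and the highest 351. The 3 fullest were the high-coordinate end of chromosome 8 (351 peaks, 12.6 times the density in the rest of that chromosome), the low-coordinate end of chromosome 19 (278 peaks, 3.05 times) and the high-coordinate end of chromosome 9 (275 peaks, 10.2 times). The low-coordinate end of chromosome 7 followed with 263 peaks (9.66 times). The emptiest were the low-coordinate ends of chromosomes 21 (0 peaks), 22 (2 peaks) and 3 (10 peaks, 0.424 times). Of 34 ends, 26 were denser than the rest of their chromosome in list 1, 21 at least 2 times, and 16 held more peaks than every internal window of 3 Mb on their chromosome. With both ends of a chromosome summed, all 17 chromosomes had a ratio above 1, from 1.31 to 7.11.

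In list 2 the counts per end ran from 4 to 65 with a median of 32. The fullest were the high-coordinate end of chromosome 3 (65 peaks, 2.20 times the rest), the low-coordinate end of chromosome 4 (58 peaks, 2.09 times), and, with 56 peaks each, the high-coordinate end of chromosome 8 (1.27 times) and the low-coordinate end of chromosome 19 (1.01 times). The emptiest were the low-coordinate end of chromosome 22 (4 peaks) and, with 7 each, the high-coordinate end of chromosome 10 (0.169 times) and the low-coordinate end of chromosome 21. Of 34 ends, 16 were denser than the rest of their chromosome, 3 at least 2 times, and 0 exceeded every internal window. List 1 had more peaks than list 2 in 26 ends and fewer in 8. Across the 34 ends the counts of both lists were related (Spearman rho 0.56, Pearson r 0.56), and each was related to the number of protein-coding genes in the end (rho 0.73 for list 1 and 0.68 for list 2). These correlations are descriptions over ends that share libraries and a genome.

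**Figure D2:**
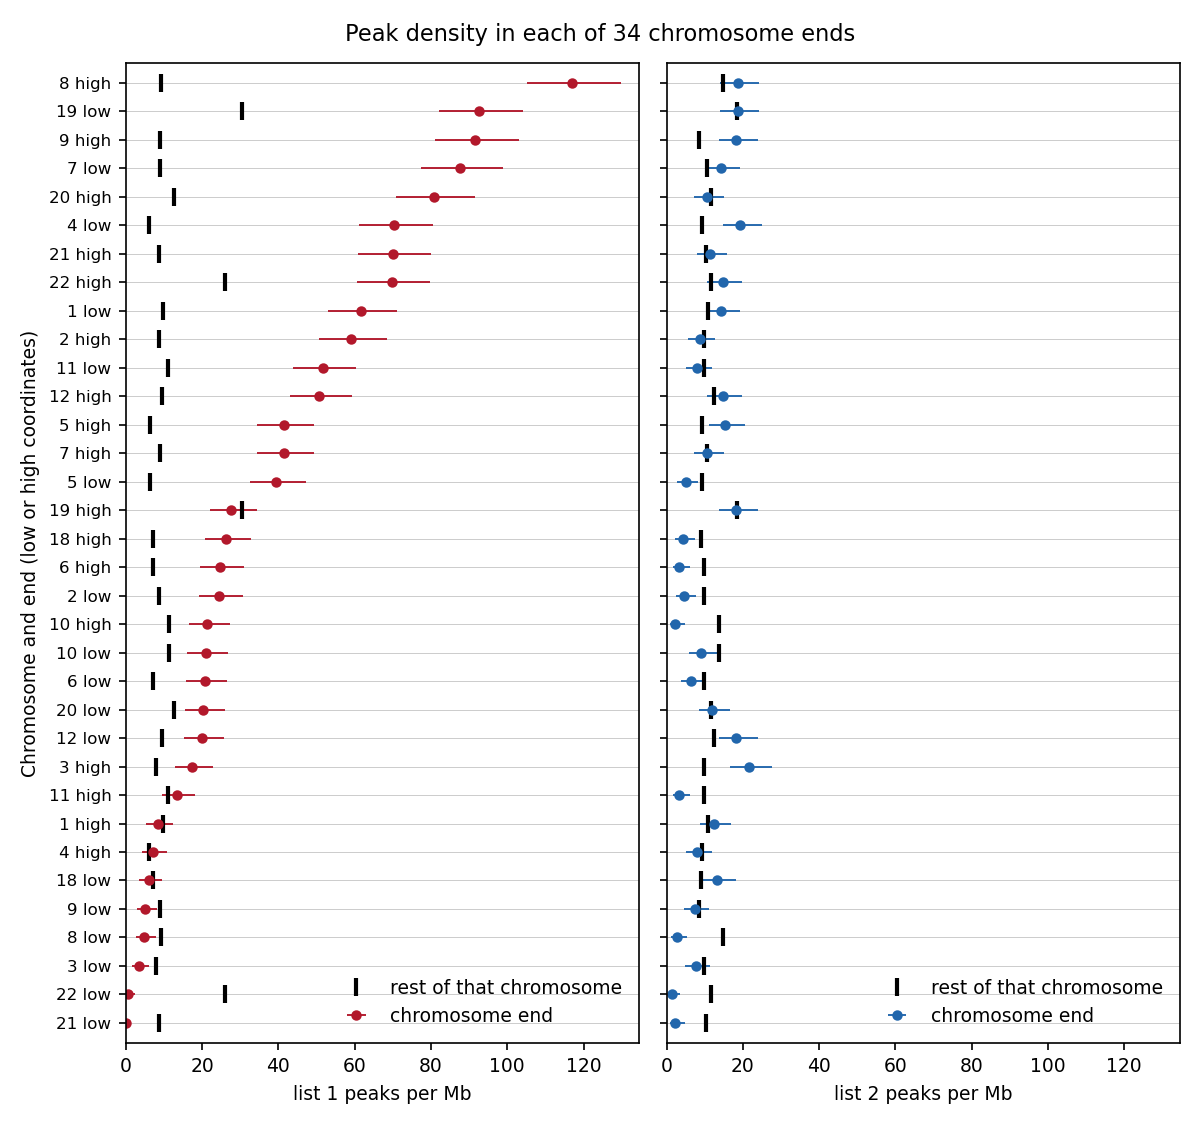
Peaks per Mb of list 1 (left) and list 2 (right) in each of 34 chromosome ends, sorted by list 1, with 95% Poisson intervals, and a black bar for the rest of the same chromosome. In list 1, 26 ends lie above their chromosome, up to 117 peaks per Mb at the high-coordinate end of chromosome 8, whereas in list 2 the ends fall on both sides of it.

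List 1 was also denser in the ends per gene and at equal gene number, while list 2 was less dense. The ends held 1308 protein-coding genes, 12.8 per Mb against 6.25 per Mb in the rest, a ratio of 2.05. Per protein-coding gene there were 2.97 list 1 peaks in the ends and 1.51 in the rest (ratio 1.97, 1.90 to 2.04), and 0.829 and 1.72 list 2 peaks (ratio 0.483, 0.454 to 0.513). When bins of 1 Mb were sorted by gene number, list 1 was denser in the ends in all 5 classes. Bins with 0 to 2 genes held 13.8 list 1 peaks in the ends and 4.03 in the rest (ratio 3.42, 3.01 to 3.88), and bins with 21 or more genes held 65.8 and 26.5 (ratio 2.48, 2.33 to 2.64). The remaining classes had ratios from 2.07 to 3.33, and set against the rest at equal gene number the ends had 2.70 times as many list 1 peaks. List 2 was lower in the ends in the 4 classes up to 20 genes, with ratios from 0.693 to 0.813 and intervals below 1, and was 0.957 times the rest (0.854 to 1.07) in the class with 21 or more. Shared regions had a ratio of 3.18 (2.34 to 4.28) in the class with most genes and 1.29 (0.263 to 3.89) in that with fewest, where the ends held 3 regions.

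**Figure D3:**
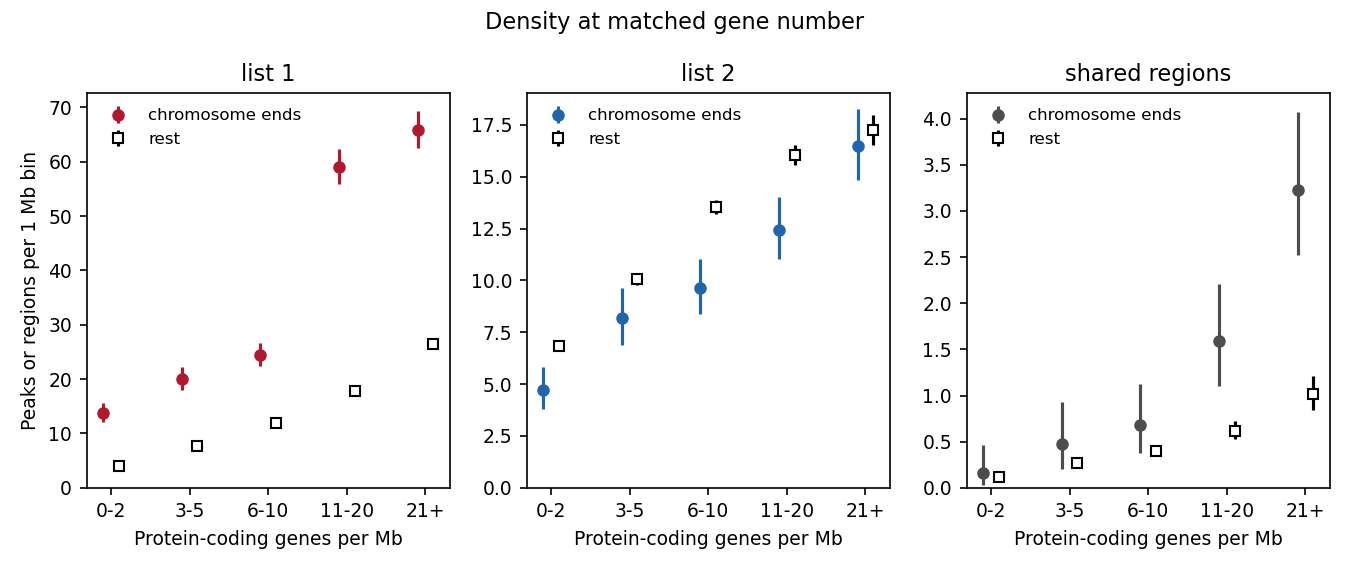
Peaks or shared regions per bin of 1 Mb in the chromosome ends (filled circles) and the rest (open squares), for bins sorted into 5 classes by their number of protein-coding genes, with 95% Poisson intervals and a separate axis per panel. List 1 lies higher in the ends in every class, and list 2 lies lower or level.

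List 1 peaks of the ends were wider and scored higher than those of the rest, and list 2 peaks differed less. The median width in list 1 was 861 bp (interval of the median 847 to 876) against 669 bp (664 to 674), and in list 2 it was 481 bp (474 to 491) against 445 bp (444 to 446). The score was assigned to each peak by the authors and is compared only within a list. Its median in list 1 was 67.7 (66.8 to 68.8) against 62.9 (62.5 to 63.2), and in list 2 it was 61.1 (60.1 to 62.4) against 60.5 (60.3 to 60.7), intervals that overlap. The share of list 1 peaks that lay in the ends was 21.7% in the best score decile and 11.5% in the last, and 25 of the best 100 lay there. In list 2 it was 5.05% and 3.79% in these deciles, and 3 of the best 100. List 1 peaks covered 3.71% of the sequence of the ends and 0.708% of the rest, and list 2 peaks 0.567% and 0.499%.

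Overlap between the replicates was higher in the ends for list 2 and not for list 1. Of list 1 peaks, 133 in the ends (3.42%, 2.89 to 4.04%) and 746 in the rest (3.49%, 3.26 to 3.75%) overlapped list 2, against the 3.48% of all list 1 peaks of these chromosomes (odds ratio 0.978, 0.810 to 1.18). Of list 2 peaks, 135 peaks of the ends (12.5%, 10.6 to 14.6%) and 742 in the rest (3.06%, 2.85 to 3.29%) overlapped list 1, against 3.46% of all (odds ratio 4.50, 3.71 to 5.47). The list 2 share was higher where list 1 covered more sequence, and the part of that coverage in it was not tested. A peak was counted at a gene end when a start or end of a protein-coding gene was no more than 1000 bp from its midpoint. There 54 of 120 list 2 peaks of the chromosome ends overlapped list 1 (45%), against 217 of 826 in the rest (26.3%). Away from gene ends the shares were 8.40% and 2.24%. With overlap of at least 50% of both peaks, 78 of the 132 shared regions of the ends remained.

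Unlike density, the gene-end share was higher in the chromosome ends than in the rest for list 2, and close for list 1. In list 2, 120 of the 1084 peaks of the chromosome ends lay at gene ends (11.1%, 9.34 to 13.1%) against 3.41% in the rest (3.19 to 3.64%) and 3.74% of all, an odds ratio of 3.53 (2.88 to 4.32). In list 1 the shares were close, 520 of 3890 (13.4%, 12.3 to 14.5%) against 14.6% (14.1 to 15.1%) and 14.4% of all (odds ratio 0.904, 0.818 to 0.999), and this odds ratio passed 1 with a reach of 1 or 2 Mb (1.32 and 1.08), a window of 3000 bp (1.11) or any overlap of the peak with the window (1.01). Of shared regions, 51 of 132 lay at gene ends (38.6%, 30.8 to 47.2%) against 29.7% in the rest (26.5 to 33.1%) and 31.1% of all. The density ratio of list 1 was 4.09 (3.94 to 4.25) away from gene ends and 3.70 (3.36 to 4.06) at them. For list 2 the ratio was 3.22 (2.63 to 3.90) at gene ends and 0.912 (0.854 to 0.973) elsewhere. Most list 1 peaks of the ends, 2171 or 55.8%, lay inside a protein-coding gene away from its ends, against 48.6% in the rest, where genes cover 42.7% of the length compared with 48.4% in the ends.

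Among the 1308 protein-coding genes of the chromosome ends, 497 carried a list 1 peak at an end (38.0%, 35.4 to 40.7%), against 23.3% in the rest and 24.6% of all. A list 2 peak lay at an end of 137 (10.5%, 8.93 to 12.3%), against 6.25% in the rest and 6.61% of all, and a shared region at an end of 59 (4.51%, 3.51 to 5.77%), against 1.78% and 2.02% of all. The promoter table held 995 of the 1308 genes and gave their strand, which told the start of a gene from its far end. List 1 peaks overlapped 229 of the 995 promoter windows (23%, 20.5 to 25.7%), against 16.3% in the rest and 16.8% of all. At the far end of the gene, a window of equal length held a list 1 peak in 115 (11.6%, 9.72 to 13.7%), against 2.56% in the rest (2.28 to 2.86%) and 3.28% of all. The odds ratio between ends and rest was thus 4.98 (3.97 to 6.25) at far ends and 1.54 (1.32 to 1.80) at promoters. Where no promoter window lay within 1000 bp of the far end, the shares were 10.8% (8.91 to 13%) and 2.15% (1.89 to 2.45%). Over all sequence, list 1 was 4.04 times as dense in the ends and covered 3.71% of them against 0.708% of the rest. A trait particular to far ends cannot be read from these values.

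List 2 differed from list 1 at these positions. Its peaks overlapped 56 of 995 promoters (5.63%, 4.36 to 7.24%), against 2.66% in the rest and 2.90% of all (odds ratio 2.18, 1.63 to 2.92), but only 7 far ends (0.704%, 0.341 to 1.45%), against 0.504% in the rest and 0.520% of all. Shared regions overlapped 34 promoters (3.42%, 2.46 to 4.74%), against 1.56% in the rest and 1.71% of all, and 3 far ends, against 0.163% of all. Inside genes the lists pointed in opposite directions. A list 1 peak lay inside 751 genes of the ends (57.4%) against 43.5% in the rest and 44.7% of all, and a list 2 peak inside 359 (27.4%) against 38.0% in the rest and 37.1% of all. Genes of the ends were shorter, with a median of 15.4 kb against 27.0 kb. List 1 had the larger number of peaks inside 48.9% of the genes of the ends and list 2 in 9.10%, while in the rest these shares were 27.5% and 25%.

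**Figure D4:**
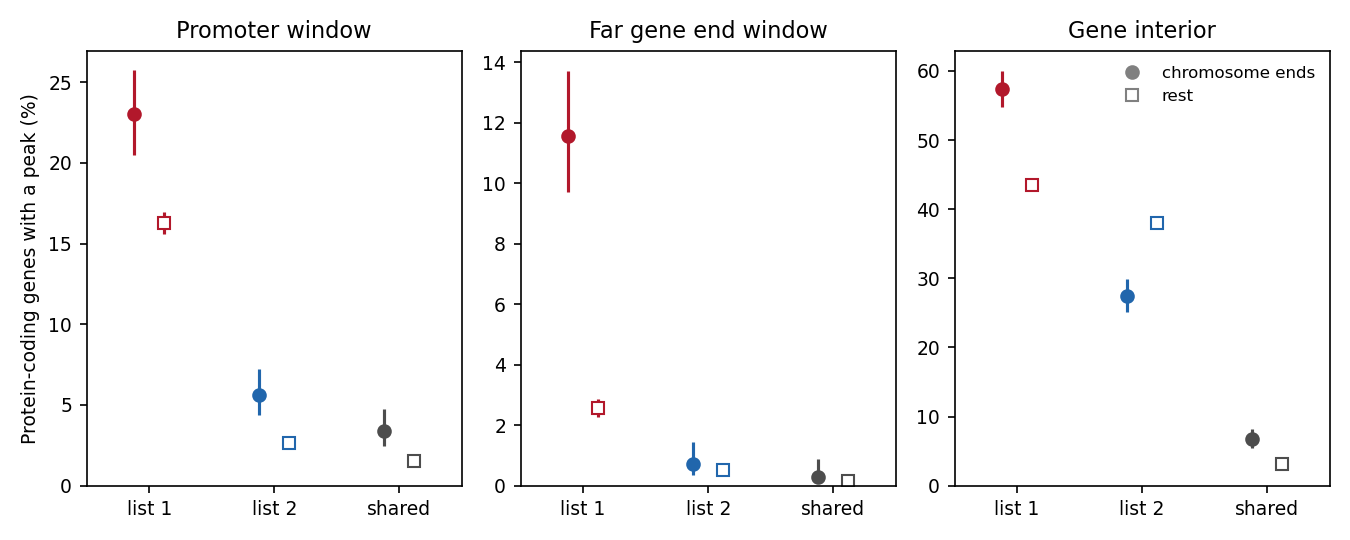
Percent of protein-coding genes with a peak in the 300-base promoter window (left), in a window of equal length at the far gene end (middle) and anywhere inside the gene (right), for list 1, list 2 and shared regions, in the chromosome ends (filled circles) and the rest (open squares), with 95% Wilson intervals. The ratio of ends to rest is highest for list 1 at far gene ends (11.6% against 2.56%), and inside genes list 2 lies lower in the ends (27.4% against 38.0%). Over all sequence, list 1 peaks cover 3.71% of the ends against 0.708% of the rest.

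The composition of promoters moved with these counts. The median G and C content was 68.7% in the 995 promoters of the ends and 62.0% in the rest. Within the ends it was 71.0% in the 229 promoters with a list 1 peak and 67.0% in those without, and 74.0% in the 56 with a list 2 peak. In promoters of 65 to 75% G and C, a list 1 peak was present in 105 of 345 in the ends (30.4%, 25.8 to 35.5%) and in 22.9% in the rest (21.5 to 24.3%), and a list 2 peak in 7.83% (5.43 to 11.1%) and 3.97% (3.35 to 4.69%). From 55 to 65% the list 1 shares were 21.3% (16.4 to 27.1%) and 18.5% (17.2 to 19.8%), and above 75% they were 25.1% (20.3 to 30.5%) and 21.5% (19.3 to 23.9%), with intervals that overlap. The intervals for list 2 also overlapped in these bands, with 1.81% (0.706 to 4.56%) and 1.74% (1.35 to 2.22%) from 55 to 65%, and 8.73% (5.93 to 12.7%) and 7.58% (6.23 to 9.19%) above 75%. Below 45%, 0 of 70 promoters of the ends held a list 1 peak, which allows up to 5.20% by the Wilson interval, against 1.12% in the rest. The part of base composition in the density ratio was not tested. The letters TTAGGG or CCCTAA were found in 7.84% of promoters of the ends and in 8.73% of all, and those of the GC box in 67.0% and 58.1%.

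The first 20 coding genes by rank of the shared region at their end drew on 17 regions, and of the 11 whose strand was in the table all had it at the start of the gene. AURKAIP1, which encodes a protein that binds Aurora kinase A and a subunit of the mitochondrial ribosome, scored 485.4 in list 1 (rank 17 in the whole list) and 143.17 in list 2 (rank 220), with its region at 1374026 to 1375740 of chromosome 1. JRK and the surface antigen gene PSCA shared a region with scores of 431.32 and 138.03. LETM1, an ion exchanger gene of the inner mitochondrial membrane, had 392.56 and 132.88, in a region at 1855251 to 1857336 of chromosome 4. UBAC1, a subunit of a ubiquitin ligase, had its region centred 4 bp from the gene end, with 196.38 in list 1 and 253.21 in list 2, the latter the best list 2 score in the chromosome ends. SHARPIN, a subunit of the linear ubiquitin ligase, and MAF1, a repressor of RNA polymerase III, shared the region with the best list 1 score of the ends, 519.9 (rank 9), and 114.73 in list 2.

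Lower in this order came C1orf159 (213.43 and 125.39), the HSP90 cochaperone gene FKBP4 (158.06 and 130.88), and UBE2J2, a ubiquitin-conjugating enzyme gene of the endoplasmic reticulum (238.97 and 93.05). The zinc finger gene ZNF837 had 182.16 and 93.43 and lay 0.219 Mb from the outermost gene of chromosome 19. PRR33 scored 116.44 in list 1 and 156.34 in list 2. DPH7, which acts in the synthesis of diphthamide, had 136.64 and 100.7. PIGZ, a mannosyltransferase gene of membrane anchor synthesis, and LOC124906255 shared a region with 164.43 and 90.87. The forkhead gene FOXL3 had 111.2 and 140.5, at 0.277 Mb from the outermost gene of chromosome 7. The last were the golgin gene GOLGA3 (197.61 and 82.85), WRNIP1, which encodes a partner of the WRN helicase (132.7 and 84.55), TRABD (100.67 and 96.73), and the kisspeptin receptor gene KISS1R (222.07 and 74.9). Of the 20 genes, 12 still had a shared region with overlap of at least 50% of both peaks.

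Of the 5 best-scoring list 1 peaks in the ends, 4 lay within 1000 bp of a gene end, and 1 had no list 2 counterpart. This was the peak at 2399594 to 2401390 of chromosome 11, 258 bp from the start of TSSC4, a gene of the imprinted cluster, with a score of 486.52. The others were those of MAF1 and AURKAIP1, a peak 214 bp from the start of PIDD1, a regulator of caspase activation (474.07), and a peak inside TCEA2, a transcription elongation factor gene, 7413 bp from its start (469.34). In list 2, only 2 of the best 5 overlapped list 1, at UBAC1 and at PRR33 (156.34). The second best, 208.93, lay inside the glycosyltransferase gene B4GALNT3, 724 bp from an end. The third (178.32) and the fifth (154.45) lay in the low-coordinate end of chromosome 21, at 96746 and 486279 bp from the nearest end of a protein-coding gene.

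Windows with many list 1 peaks were more frequent in the ends. Whether peaks clustered beyond their higher mean density there, or along genes, was not tested. Among 1016 windows of 100 kb in the ends, 130 held 10 or more list 1 peaks (12.8%), against 93 of 22586 windows in the rest (0.412%), and the fullest held 26 and 18. For list 2, 0 windows of the ends and 13 of the rest held 10 or more. The fullest window lay on chromosome 8 from 144363713 to 144463712, over ADCK5, CPSF1, SLC39A4, VPS28 and TONSL. The following genes were picked after their counts were seen. Counts are over the whole gene, and HDAC4 and CDH4 reach past the 3 Mb limit of the ends. PTPRN2, which encodes a phosphatase-like protein of secretory granules and spans 1049 kb at the end of chromosome 7, held 51 list 1 peaks and 2 list 2 peaks. HDAC4, a class IIa histone deacetylase gene at the end of chromosome 2, held 31 and 0. COL18A1, the gene of a basement membrane collagen, held 22 and 1 over 109 kb, and the adhesion receptor gene ADGRB1 held 22 and 0 over 95.4 kb. TSNARE1 held 35 and 2, the spindle checkpoint gene MAD1L1 34 and 3, and the cadherin gene CDH4 34 and 3. Per 100 kb, list 1 had 4.86 peaks in PTPRN2, 4.94 in CDH4, 8.15 in MAD1L1 and 8.77 in HDAC4. It had 17.95 in TSNARE1, 20.27 in COL18A1 and 23.07 in ADGRB1. PTPRN2 and CDH4, both long genes, were thus only a little above the 38.1 list 1 peaks per Mb of all ends. The high-coordinate end of chromosome 7, where PTPRN2 lies, held 41.3 per Mb.

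List 2 had the larger number of peaks inside 119 of the 1308 genes of the ends (9.10%, against 25% in the rest). The most list 2 peaks were in ERC1, a scaffold gene of the presynaptic active zone, with 13 against 3 in list 1 over 506 kb. CNTN4, a neural adhesion gene of 959 kb, held 8 against 3. The kinase gene WNK1 held 6 against 2, and the scavenger receptor gene COLEC12 5 against 0. Per 100 kb, list 2 had 2.57 peaks in ERC1, 0.834 in CNTN4, 3.78 in WNK1 and 2.72 in COLEC12. CNTN4 was thus below the 10.6 list 2 peaks per Mb of all ends. These genes were also picked after their counts were seen and counted over the whole gene, and CNTN4 reaches past the 3 Mb limit. Of the 1308 genes of the ends, 46 held 10 or more list 1 peaks and 1 held 10 or more list 2 peaks. Of the 14122 genes of the rest, 96 and 92 did.

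The gene groups of the ends gave counts at gene ends to set beside 38.0% (list 1), 10.5% (list 2) and 4.51% (shared) of all protein-coding genes there. A list 1 peak lay inside 57.4% of those genes and a list 2 peak inside 27.4%. All ends together held 38.1 list 1 and 10.6 list 2 peaks per Mb. Counts inside genes were not adjusted for gene length. Telomere maintenance was represented by TERT, the catalytic subunit of telomerase, and RTEL1, a helicase that unwinds telomere loops. TERT held 5 list 1 peaks inside and none at its ends, and RTEL1 held 6 inside and 1 at an end (290.55), and neither held a list 2 peak. The RTEL1 gene adjoins TNFRSF6B, so these counts can share peaks. Of 11 chromatin regulators in the ends, 7 had a list 1 peak at an end, 1 a list 2 peak and 1 a shared region, which was that of the bromodomain gene BRD9 (50.47 and 66.46). The best list 1 scores at their ends were those of HDAC10, a deacetylase gene (125.67), and EHMT1, a histone H3 lysine methyltransferase gene (103.59). Together the 11 regulators held 75 list 1 and 17 list 2 peaks inside, over 1500 kb. List 2 had more only in KDM5A, a demethylase gene (1 and 4), and ZMYND11, a histone reader gene (1 and 3). Of the 75, 31 were in HDAC4, which reaches past the 3 Mb limit of the ends.

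Of 12 ion channel and synapse genes, 7 carried a list 1 peak at an end, 2 a list 2 peak and 0 a shared region. The nicotinic receptor gene CHRNA4 scored 114.23, the complexin gene CPLX1 105.94 and the glutamate receptor gene GRIN1 88.91 in list 1. Among 9 signalling genes, 3 carried a list 1 peak at an end and PIDD1 a shared region. NOTCH1, the receptor gene, held 8 list 1 peaks and 0 list 2 peaks inside, the proto-oncogene SKI 11 and 1, and the RAS gene HRAS none of either. Among 12 genes of the imprinted cluster on chromosome 11, 4 had a list 1 peak at an end (TSSC4, ASCL2, CD81 and IGF2) and 0 a list 2 peak. The potassium channel gene KCNQ1 held 18 list 1 and 1 list 2 peaks inside, over 404 kb, and H19, CDKN1C and PHLDA2 held none. Of 4 gel-forming mucins, MUC5B had a shared region (86.72 and 52.57), MUC5AC held 6 list 1 peaks inside, and MUC2 and MUC6, the first of which is the main mucin of the colon, held none.

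Olfactory receptor genes and duplicated families of the ends had few peaks at their ends. Of 54 olfactory receptor genes, 2 carried a list 1 peak at an end (3.70%, against 2.08% of those in the rest), OR2T10 (54.68) and OR2Y1 (102.28), and 0 a list 2 peak. Of 81 genes and pseudogenes of duplicated families, 2 had a list 1 peak at an end (2.47%, against 11.5% of those in the rest) and 1 a list 2 peak, and these were DUX4L44, in the low-coordinate end of chromosome 22 (209.08 and 51.74), and SEPTIN14P6 (57.49). The families were picked by the start of the symbol and take in members that are not copies, such as IQSEC3-AS1. The kinds of member can thus differ between ends and rest, and the set is not limited to protein-coding genes. Some members of these families are near-identical copies, at which reads can fail to be placed. The handling of such reads is not given in the sources used here, and its part in these counts was not tested. Zinc finger genes had 39 of 101 with a list 1 peak at an end (38.6%, against 22% of those in the rest), 10 with a list 2 peak and 3 with a shared region, ZNF837, ZNF329 (83.09 and 56.48) and ZNF583 (50.05 and 69.43). Ribosomal protein genes had 3 of 12 for each list (25%). In the rest, 45 of 122 had a list 1 peak at an end (36.9%) and 7 a list 2 peak. Ribosomal protein genes of the ends had 1 shared region, at RPLP2. It is the same region as that of PIDD1. RPL8 had its peak in list 2 alone (152.66) and MRPL20 in list 1 alone (269.71). Of 4 TNF receptor genes, 3 had a list 1 peak, with scores from 67.45 to 78.92, and 0 a list 2 peak.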

How the data were processed

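MTA1 ChIP and input libraries were compared through the authors' peak lists. The submitters' processing notes name cutadapt, Bowtie2 and the build GRCh38. The peak caller's settings were not given in the sources used here. Per the deposited lists, each peak carries a score that the authors' caller assigned, whose scale is not stated. Peaks were called per replicate. Per the labels' protocols, libraries were amplified by PCR and selected by size on a gel, steps that can shape calls and whose effect was not measured.

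Genes came from a RefSeq table of GRCh38.p14. Of its rows, 718 restart at low positions after the end of their chromosome and have no promoter entry. They lie on sequences outside the assembled chromosomes and were left out, which leaves 15430 protein-coding genes on the 17 chromosomes. The table gives no strand, exons or UTRs, and strand came from the promoter table. Positions are 1-based.

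Peaks of both lists were paired from 1 bp of overlap. Density used the span between first and last gene, and 1 list 1 and 6 list 2 members lay beyond it. Intervals are 95%: exact conditional for density ratios, Poisson for densities, Wilson for shares, Woolf for odds ratios and order statistics for medians. The functions were checked on simulated data. Python 3.11.15, pandas 2.3.3 and scipy 1.17.1 were used. A shared region's rank was its best list 1 rank plus its best list 2 rank. Named are the first 20 protein-coding genes in this order with a region at an end, the 5 best peaks of each list, the fullest and emptiest ends, TERT, and up to 4 members of each gene group. Further group members and genes named for counts inside them were picked after their values were seen. The members, gene groups and rules were chosen with earlier results of these data known. Alternatives were a reach of 1, 2 or 5 Mb, other anchors, windows and overlaps, the better-scoring 50% of each list, each list alone, and, added after the data were seen, leaving out chromosome 8.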

Additional observations from a re-analysis of the deposited data

How the results depend on the processing

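Of 154 alternative values, 114 stayed inside the interval of the reported one or, for the 20 named genes, at 17 with 500 bp. Where that interval took in no difference, the direction could change. For example, the list 2 density ratio was 0.990 and became 1.04 with a reach of 2 Mb. The list 2 score difference was 0.555 and became -0.36 with 5 Mb. The list 1 density ratio was 3.66 with a reach of 1 Mb, 3.70 with 5 Mb, 4.19 with protein-coding genes as anchors, 4.29 without the low-coordinate ends of chromosomes 21 and 22, 4.89 with the better-scoring 50%, 3.88 without chromosome 8, 3.89 when the rest was taken without its longest gene-free interval per chromosome and 2.70 at equal gene number. That of list 2 was 1.12 (1.01 to 1.24) with a reach of 1 Mb, 0.937 (0.892 to 0.984) with 5 Mb and 0.810 at equal gene number. The side of 1 on which list 2 lay thus changed with the reach. The density ratio of shared regions was 5.80 with the better-scoring 50% and 2.55 at equal gene number. The list 1 gene-end odds ratio turned to 1.32 and 1.08 with a reach of 1 and 2 Mb, 1.11 with 3000 bp and 1.01 with any overlap, and was 0.767 with 5 Mb, 0.763 with the better-scoring 50%, 0.815 with 500 bp and 1.00 with genes of every type (0.9995). That of list 2 was 4.48 with 1 Mb and 2.46 with genes of every type. The overlap odds ratio of list 1 was 1.31 at gene ends, and that of list 2 was 6.40 with the better-scoring 50%, 3.69 with 50% overlap and 2.30 at gene ends. At gene ends the list 1 score difference was 8.39. The list 1 width difference was 159 bp with 1 Mb, 166 bp without chromosome 8 and 138.5 bp at gene ends, and that of list 2 was 165.5 bp at gene ends. The odds ratio for genes with a peak at an end was 1.72 with 500 bp and 2.57 with 3000 bp in list 1, and 1.37 with 3000 bp in list 2. Of the 20 named genes, 12 remained with 50% overlap. With 1 list left out, values for shared regions become those of the other list: 0.990 to 4.04 for density, 0.904 to 3.53 for the gene-end odds ratio, 36 to 192 bp for width and 1.75 to 2.02 for genes. The cause of these differences was not tested. No paired analysis was possible because the lists hold no values per library. Depth is unknown, so differences of a few peaks per end cannot be read.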

Other observations

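Another 9 ends, on chromosomes 13 to 17 and X, lay outside the rule and were looked at after the results above were seen. The acrocentric low-coordinate ends of chromosomes 13, 14 and 15 were not used. In list 1 the high-coordinate ends of chromosomes 13, 14 and 15 had 6.57, 4.53 and 1.94 times the density of the rest of their chromosome. The ends of chromosome 16 had 6.69 times at low and 8.64 times at high coordinates, and those of chromosome 17 had 1.33 and 5.14 times. List 2 had 0.716, 0.747 and 0.778 times on chromosomes 13, 14 and 15, 1.16 and 1.80 times on chromosome 16, and 1.12 and 1.09 times on chromosome 17. On X the low-coordinate end held no peak of either list, and the high-coordinate end held 24 list 1 and 3 list 2 peaks. With the exception of the low-coordinate end of X, list 1 was thus denser in each of these ends than in the rest of its chromosome, as in 26 of the 34 ends described above.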
